A study of Mus musculus with 4 samples.

Results

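The genes described here encode the core of the splicing machinery: SR proteins, hnRNPs, subunits of the SF3A and SF3B complexes, proteins of the U snRNPs and the CLK kinases. They were taken as the protein-coding mouse genes whose symbol starts with Srsf, Hnrnp, Sf3a, Sf3b, Snrnp or Snrp, together with Clk1 to Clk4, which gave 63 of the 48709 genes counted. Of these, 62 had enough reads to be tested, among 13699 genes tested in all. The gene left out was Srsf12, with 2 and 1 reads in WT and no read in either DDI2-KO library. The liver RNA came from 4 untreated adult C57BL/6 mice, each sequenced as 1 mRNA library. The 2 WT mice were littermates that carried the floxed Ddi2 allele without Cre, and the 2 DDI2-KO mice were Ddi2 flox/flox with Cre under the albumin promoter (genotype label DDI2-/-). Both groups thus share the floxed allele. Albumin-driven Cre acts in hepatocytes, and other cells of the liver may keep Ddi2. The labels give no age or sex for the single mice. The comparison was made in the study to find genes that act downstream of DDI2, the protease that cleaves NRF1, a transcription factor.

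Introns are removed from pre-mRNA by the spliceosome, which is built from small nuclear ribonucleoproteins. U1 marks the 5′ splice site, U2 with its SF3A and SF3B subunits marks the branch point, and most U snRNPs carry a ring of Sm proteins around their RNA. SR proteins mostly favour the use of nearby splice sites, hnRNPs bind pre-mRNA and often counter them, and CLK kinases phosphorylate SR proteins. Many genes of this machinery control their own level through introns that stay in the transcript or through exons that carry a stop codon, and transcripts with a retained intron often stay in the nucleus.

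The libraries held 22501208 to 34109018 reads on genes, so that 3 reads, taken as the lowest detectable level, corresponded to 0.088 to 0.133 CPM. Levels are given as CPM, read counts divided by the library size that TMM scaling gives. Groups were compared with the quasi-likelihood test of edgeR, whose p-values were adjusted by Benjamini-Hochberg over all 13699 genes (edgeR adjusted p), and a fold change carries its standard error (SE). The targeted gene, Ddi2, was at 141 and 123 CPM in WT and at 157 and 164 CPM in the DDI2-KO-labelled libraries. For Ddi2 this gave a difference of 0.28 on the log2 scale (SE 0.17, edgeR adjusted p = 0.349), and the count covers the whole gene, not the floxed stretch alone, so it cannot check the deletion. Reads that fell on no annotated gene amounted in WT to 5.11 and 4.7% of those on genes, and in the DDI2-KO-labelled libraries to 2.53 and 3.65%. Malat1, a nuclear long non-coding RNA, was at 56.3 and 59.7 CPM in WT and at 20.2 and 27.2 CPM in the DDI2-KO-labelled libraries. Neat1, the RNA of nuclear paraspeckles, was at 161 and 102 CPM in WT and at 28.9 and 47.9 CPM in the DDI2-KO-labelled libraries. Both nuclear RNAs were lower (log2 fold change -1.29 and -1.78, edgeR adjusted p = 0.0224 and 0.0438). The call of Neat1 was lost without WT library 1 (edgeR adjusted p = 0.0559), without DDI2-KO library 1 (0.0921), with the replicate number as a block (0.0536) and with block and offsets for GC content and length (0.0785), and that of Malat1 was kept in each of the 16 alternatives. The part of this lower nuclear and unannotated RNA in the changes described here was not tested. In whole liver, fewer cells of a type and less RNA per cell cannot be told apart. Of the markers of 8 cell types, hepatocyte markers were present in every library, at a summed level of 157701 to 177726 CPM in WT and of 147302 to 149470 CPM in the DDI2-KO-labelled libraries. None of the lists had a marker at 0 in every library. Among the 38 markers, Stab2 of sinusoidal endothelium and Hba-a1 of red cells were the ones called, both lower. Of all genes tested, 2.53% were called. Of the 5 endothelial markers, 3 had a log2 fold change below 0 and 2 above, with a median of -0.078. Summed Kupffer cell markers ranged from 483 to 558 CPM in WT and from 595 to 696 CPM in the DDI2-KO-labelled libraries, and summed lymphocyte markers from 25.2 to 26.5 and from 17.9 to 20.8 CPM. Cholangiocyte markers summed to 52.8 to 56.4 CPM in WT and to 68.7 to 70.4 CPM in the DDI2-KO-labelled libraries, stellate cell markers to 444 to 464 and 413 to 437 CPM, and red cell markers to 84.9 to 163 and 54.1 to 65.4 CPM. The sums of these 6 lists did not overlap between the groups, while those of endothelial and cycling cell markers did. Over all genes tested, both DDI2-KO-labelled libraries lay below both WT libraries in 27.7% and above both in 28%. Log2 fold changes were above 0 for 4 of 5 Kupffer, 4 of 5 cholangiocyte and 2 of 5 hepatocyte markers. Marco was the Kupffer marker below 0, at -0.33. All stellate, lymphocyte and red cell markers were below 0. The part of these cell types in the changes described here was not tested.

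Of the 62 splicing factor genes tested, 5 passed the threshold, an edgeR adjusted p below 0.05, and these are referred to as called. The genes Snrpg, Snrpe and Snrpn, which encode Sm ring proteins, were higher in the DDI2-KO-labelled libraries, by 1.13 to 1.61 on the log2 scale. Clk4, a kinase of SR proteins, and Hnrnph1, a binder of G-rich RNA, were lower. The share called was 8.06%, beside 2.53% of all genes tested. By direction, 1.33% of all genes were called higher and 1.2% lower. The median log2 fold change of the 62 genes was -0.11, beside -0.015 over all genes tested. Below 0 were 36 of the 62 (58.1%), beside 51.3% of all genes tested. Both DDI2-KO-labelled libraries lay below both WT libraries in 26 genes (41.9%), beside 27.7% of all genes, and above both in 18 genes (29.0%), beside 28%. An unadjusted p under 0.05 was found for 25 of the 62 genes (40.3%), beside 23.5% of all genes. These counts describe the genes and do not test them as a list. Together the 63 genes took 0.284 and 0.281% of all gene reads in WT, and 0.248 and 0.27% in the DDI2-KO-labelled libraries.

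**Figure D1:**
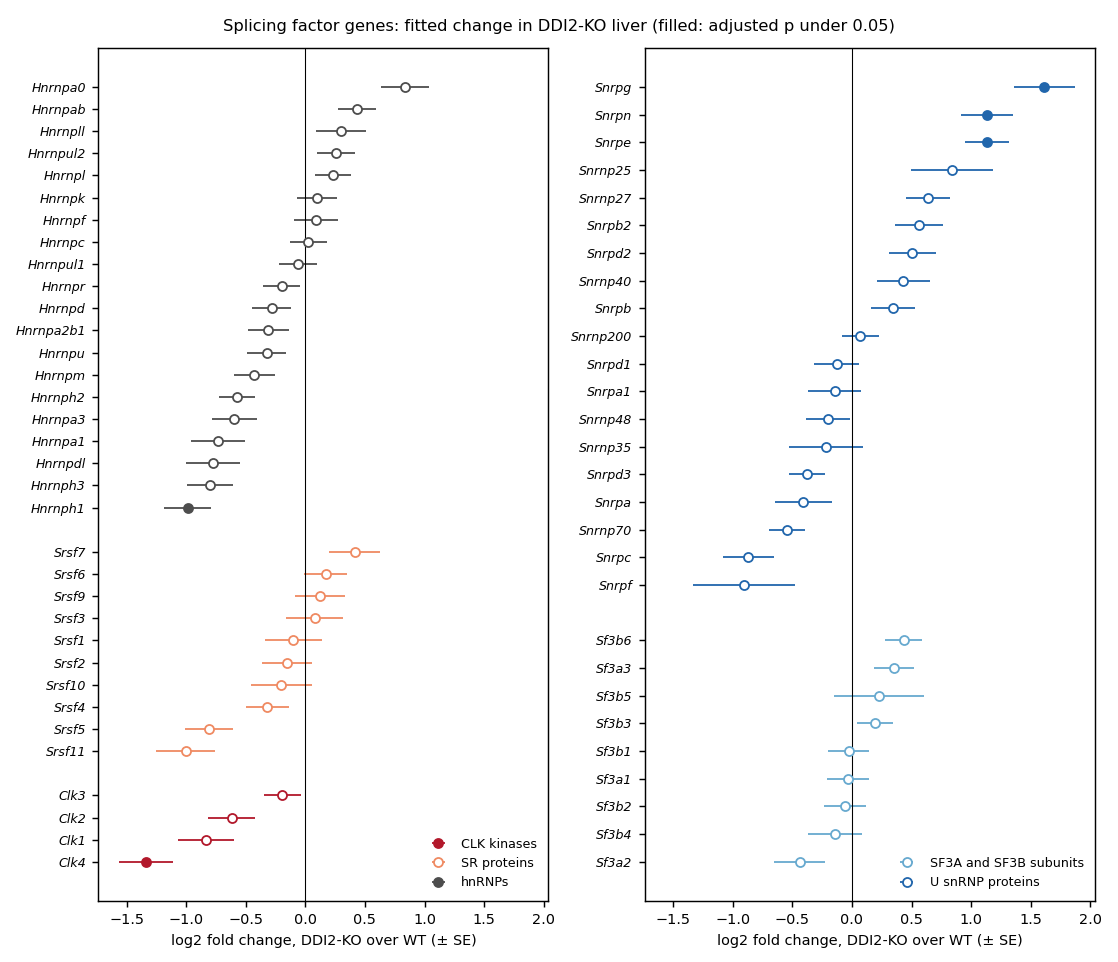
Log2 fold change of the 62 splicing factor genes tested, DDI2-KO over WT (x axis), by gene and family (y axis). Points are edgeR estimates, bars are ± 1 standard error, and filled points mark an adjusted p under 0.05; the called genes are Clk4 and Hnrnph1 to the left and Snrpe, Snrpn and Snrpg to the right.

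The sequences around the start sites of Clk4, Snrpg and Snrpe, the called genes that kept their call in the most alternatives (14 of 16), are shown because the study is about a transcription factor pathway. They are RefSeq windows of GRCm38.p6, from 250 bases before to 50 bases after the start site, on the gene's strand. Capitals mark TGACGTCA, the cAMP response element, in Clk4 and Snrpg, and CCGGAAGT, a site of ETS factors, in Snrpe.
Clk4 (chr11:51262864-51263163, plus strand): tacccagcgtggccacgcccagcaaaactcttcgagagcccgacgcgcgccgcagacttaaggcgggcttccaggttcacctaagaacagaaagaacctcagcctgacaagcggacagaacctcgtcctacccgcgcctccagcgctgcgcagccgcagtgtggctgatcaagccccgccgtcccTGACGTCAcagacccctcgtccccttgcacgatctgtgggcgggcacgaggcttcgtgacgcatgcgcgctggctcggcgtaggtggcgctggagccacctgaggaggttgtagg
Snrpg (chr6:86371290-86371589, plus strand): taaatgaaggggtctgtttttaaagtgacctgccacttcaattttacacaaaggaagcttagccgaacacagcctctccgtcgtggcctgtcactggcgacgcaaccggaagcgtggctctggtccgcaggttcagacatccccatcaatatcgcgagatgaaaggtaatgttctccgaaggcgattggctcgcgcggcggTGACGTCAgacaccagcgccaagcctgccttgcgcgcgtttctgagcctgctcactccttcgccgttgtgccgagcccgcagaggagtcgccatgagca
Snrpe (chr1:133610231-133610530, minus strand): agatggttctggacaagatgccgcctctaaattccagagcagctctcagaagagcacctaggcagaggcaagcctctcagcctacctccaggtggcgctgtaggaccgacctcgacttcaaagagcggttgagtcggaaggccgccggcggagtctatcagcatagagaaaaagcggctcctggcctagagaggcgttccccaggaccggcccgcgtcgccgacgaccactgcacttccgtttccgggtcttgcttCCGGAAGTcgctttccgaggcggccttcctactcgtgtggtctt
The motif begins 65 bases before the start site in Clk4, 49 bases before it in Snrpg and 6 bases after it in Snrpe. NRF1 binds antioxidant response elements, whose core was searched as TGACNNNGC on both strands, and this core was in none of the 3 windows. Windows were given for 55 of the 63 genes, 72 windows in all, among 32851 windows of all genes. The antioxidant core was in 18.1% of the windows of splicing factor genes and in 12.4% of all windows. TGACGTCA was in 4.17 and 1.79%, and CCGGAAGT in 16.7 and 3.89%. The last 2 motifs were chosen after the sequences had been seen, so their shares include the windows they were chosen from. These shares therefore cannot show an excess of either motif. The 3 windows of splicing factor genes with TGACGTCA were those of Clk4, Snrpg and Snrpa. TGACNNNGC and TGACGTCA share the letters TGAC but cannot start at the same base. None of the 3 motifs was in the 5 windows of Hnrnph1 or the 4 windows of Snrpn. A match is a run of letters and shows no binding.

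The CLK kinases phosphorylate the serine- and arginine-rich tails of SR proteins. All 4 genes were lower in both DDI2-KO-labelled libraries than in both WT libraries, and 1 (25%) was called. Over all genes tested, 27.7% lay below WT in this way and 2.53% were called. The median log2 fold change of the CLK genes was -0.73. Clk4 (ENSMUSG00000020385, chromosome 11 of GRCm38, 51261730 to 51281766) was at 38.8 and 34.3 CPM in WT and at 11.4 and 17.6 CPM in the DDI2-KO-labelled libraries. The WT mean was thus 2.53 times the other, for a log2 fold change of -1.34 (SE 0.23, edgeR adjusted p = 0.0353). Without WT library 1 the adjusted p of Clk4 was 0.0877. Clk1, its close relative, was at 71.8 and 59.7 CPM in WT and at 28.4 and 45.3 CPM in the DDI2-KO-labelled libraries. The groups of Clk1 did not overlap, but its log2 fold change of -0.84 did not pass (SE 0.23, edgeR adjusted p = 0.0917). Clk2 was at 16.5 and 20.2 CPM against 10.7 and 13.3 CPM, with a log2 fold change of -0.62 (edgeR adjusted p = 0.119). Clk3 differed least, with 36.2 and 39.2 CPM against 33.4 and 32.5 CPM and a log2 fold change of -0.19 (edgeR adjusted p = 0.489). Per kilobase of exon, Clk1 had the highest mean level of the family, 6.31 CPM, and Clk2 the lowest, 2.86 CPM. DDI2-KO library 1 lay below library 2 in 3 of the 4 CLK genes (75%), with Clk3 the other way. Among all genes tested that were lower in both DDI2-KO-labelled libraries, 51% were lowest in library 1. Malat1, Neat1 and the reads on no gene were also lower in library 1, and a link to the CLK genes was not tested.

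Among the SR proteins, which bind exons and recruit the splicing machinery, 0 of 10 genes tested were called by edgeR. In the same family limma-voom and limma-trend called 0, and DESeq2 called 2. An unadjusted edgeR p under 0.05 was found for 2 of the 10 (20%), beside 23.5% of all genes tested. The median log2 fold change of the SR protein genes was -0.13. Srsf5, the most abundant of them at a mean of 42.8 CPM per kilobase of exon, was at 232 and 203 CPM in WT and at 106 and 143 CPM in the DDI2-KO-labelled libraries. The log2 fold change came to -0.81 (SE 0.20, edgeR adjusted p = 0.0702). Srsf11, an SR protein of the spliceosome that is also known as p54, was at 53.7 and 57.1 CPM in WT and at 20.5 and 34.8 CPM in the DDI2-KO-labelled libraries. Its log2 fold change of -1.005 also missed the threshold (SE 0.25, edgeR adjusted p = 0.0718). Both genes thus had groups that did not overlap. Srsf7, an SR protein with a zinc knuckle, was at 20.2 and 21.5 CPM in WT and at 22.1 and 33.4 CPM in the DDI2-KO-labelled libraries, with a log2 fold change of 0.41 (edgeR adjusted p = 0.285) that was 0.095 without DDI2-KO library 2 and 0.69 without DDI2-KO library 1. Srsf6 was at 91.8 and 89.7 CPM against 88.9 and 116 CPM, so its groups overlapped, and its log2 fold change was 0.17 (edgeR adjusted p = 0.614). Srsf10, the least abundant tested per kilobase at 2.65 CPM, was at 19.9 and 19.8 CPM against 12.7 and 21.9 CPM, with groups that overlapped. The groups of Srsf1, Srsf2, Srsf3 and Srsf9 overlapped as well, and their log2 fold changes lay between -0.16 and 0.12. The median of the family was 0.13 without DDI2-KO library 1 and -0.40 without DDI2-KO library 2, so its sign rested on 1 library.

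The hnRNPs are abundant nuclear proteins that coat pre-mRNA. Of 20 genes tested 1 (5%) was called, Hnrnph1, beside 2.53% of all genes tested. The median log2 fold change of the hnRNP genes was -0.24, with 12 genes (60%) below 0, beside 51.3% of all genes tested. The median was -0.080 with offsets for GC content and length and -0.081 with block and offsets. Both DDI2-KO-labelled libraries lay below both WT libraries in 11 genes (55%), beside 27.7% of all genes tested, and above them in 4 (20%), beside 28%. Hnrnph1 (ENSMUSG00000007850, chromosome 11, 50376990 to 50386528), which binds runs of G, was at 72.6 and 63.7 CPM in WT and at 28.9 and 39.9 CPM in the DDI2-KO-labelled libraries. The WT mean was 1.98 times the other, for a log2 fold change of -0.99 (SE 0.19, edgeR adjusted p = 0.0438). The adjusted p of Hnrnph1 was 0.176 without WT library 1, 0.0726 without WT library 2 and 0.0605 without DDI2-KO library 1. Its relatives did not pass. Hnrnph3 was at 15.5 and 13.3 CPM against 8.69 and 7.83 CPM, with a log2 fold change of -0.80 (edgeR adjusted p = 0.0668). Hnrnph2, on the X chromosome and outside the rule by which genes were named, was chosen after its values were seen as the remaining relative, at 45.8 and 43.3 CPM against 30.6 and 29.3 CPM (log2 fold change -0.57, edgeR adjusted p = 0.0807). Hnrnpf, the fourth gene of this kind, had overlapping groups and a log2 fold change of 0.090, and 49% of its 50-base stretches also occur in transcripts of other genes. The highest value of the family was that of Hnrnpa0, which has a single annotated transcript. It was at 12.8 and 14.7 CPM in WT and at 20.9 and 28.1 CPM in the DDI2-KO-labelled libraries (log2 fold change 0.83, edgeR adjusted p = 0.0665). Hnrnpab followed with 35.8 and 41.0 CPM against 54.9 and 48.8 CPM (log2 fold change 0.43, edgeR adjusted p = 0.161). Hnrnpa2b1 was the most abundant of the 62 genes per kilobase, at 44.3 CPM, with 320 and 326 CPM in WT and 277 and 244 CPM in the DDI2-KO-labelled libraries. Its log2 fold change of -0.31 did not pass (edgeR adjusted p = 0.311). Hnrnpr, the least abundant hnRNP tested at 1.21 CPM per kilobase, was at 28.8 and 28.5 CPM against 24.6 and 25.4 CPM (log2 fold change -0.20, edgeR adjusted p = 0.481).

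**Figure D2:**
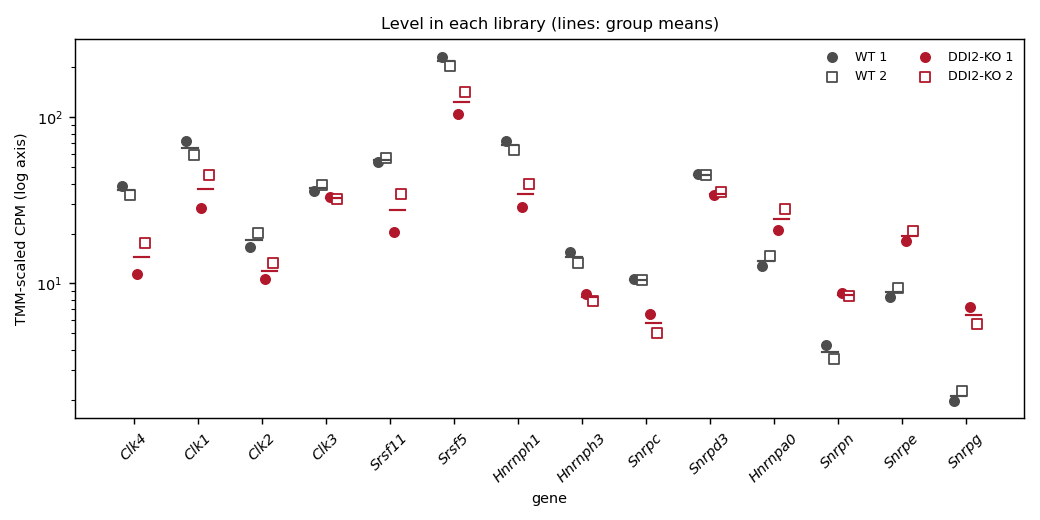
Level of 14 splicing factor genes in each library, in TMM-scaled CPM on a log axis (y) by gene (x), with group means as short lines. The 14 genes were selected for display, and genes with overlapping groups, such as Srsf6 and Sf3b2, are not shown. The 2 groups therefore do not overlap in any of them. Over all genes tested, both DDI2-KO-labelled libraries lay below both WT libraries in 27.7% and above both in 28%. Clk4 is at 34.3 to 38.8 CPM in WT and at 11.4 to 17.6 CPM in the DDI2-KO-labelled libraries, and Snrpg at 1.96 to 2.27 and at 5.70 to 7.22 CPM.

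SF3A and SF3B belong to the U2 snRNP and hold the branch point, and 0 of their 9 genes were called by edgeR, DESeq2, limma-voom or limma-trend. An unadjusted edgeR p under 0.05 was found for 1 of the 9 (11.1%), beside 23.5% of all genes tested. The median log2 fold change of the 9 genes was -0.026, and the values ran from -0.44 to 0.44, the narrowest range of the 5 families. The sign of the median rested on the processing, since it was 0.092 without WT library 2, 0.11 without DDI2-KO library 2, 0.023 with library totals, 0.11 with offsets and 0.093 with block and offsets. Sf3b1, the scaffold that clamps the branch point helix, was at 103 and 102 CPM in WT and at 89.9 and 111 CPM in the DDI2-KO-labelled libraries. Sf3b2, the most abundant of them at 14.1 CPM per kilobase, was at 96.7 and 99.6 CPM against 105 and 83.5 CPM. In both genes the groups overlapped. Sf3b6, which contacts the branch point, was at 27.5 and 28.8 CPM in WT and at 39.6 and 36.5 CPM in the DDI2-KO-labelled libraries (log2 fold change 0.44, edgeR adjusted p = 0.148). Sf3a3 had a log2 fold change of 0.35, with groups that did not overlap (edgeR adjusted p = 0.239). Sf3a2 was at 7.94 and 7.48 CPM against 6.22 and 5.13 CPM (log2 fold change -0.44, edgeR adjusted p = 0.256). Sf3b4, at -0.14, shares 49.3% of its 50-base stretches with transcripts of other genes. Sf3b5, the least abundant at 0.953 CPM per kilobase, was at 3.03 and 3.72 CPM against 5.45 and 2.44 CPM.

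The proteins of the U snRNPs gave 3 called genes of 19 (15.8%), all higher and all of the Sm ring. Of all genes tested, 2.53% were called and 1.33% were called higher. Sm proteins form the ring that holds the RNA of most spliceosomal snRNPs, and 5 of their 8 genes (62.5%) lay above both WT libraries in both DDI2-KO-labelled libraries, beside 28% of all genes tested. The median log2 fold change of the 8 Sm genes was 0.43. Snrpg (ENSMUSG00000057278, chromosome 6, 86371304 to 86379328) had 66 and 70 reads in WT and 187 and 131 reads in the DDI2-KO-labelled libraries, or 1.96 and 2.27 CPM against 7.22 and 5.70 CPM. It was 3.06 times as high in DDI2-KO, with a log2 fold change of 1.61 (SE 0.26, edgeR adjusted p = 0.0302). Snrpe (ENSMUSG00000090553, chromosome 1, 133603871 to 133610291) was at 8.27 and 9.45 CPM in WT and at 18.04 and 20.8 CPM in the DDI2-KO-labelled libraries. It was 2.19 times as high, with a log2 fold change of 1.13 (SE 0.19, edgeR adjusted p = 0.0338). Snrpn (ENSMUSG00000102252, chromosome 7, 59982495 to 60140219), an imprinted gene whose protein takes the place of SmB mainly in neurons, was at 4.25 and 3.53 CPM in WT and at 8.73 and 8.35 CPM in the DDI2-KO-labelled libraries. The log2 fold change came to 1.13 (SE 0.22, edgeR adjusted p = 0.0438). In all 3 genes the groups did not overlap, which is no separate support, since the genes were picked by their edgeR adjusted p. Without WT library 1 the adjusted p was 0.102 for Snrpg, 0.137 for Snrpe and 0.116 for Snrpn. Without WT library 2 it was 0.0645 for Snrpe and 0.165 for Snrpn, and without DDI2-KO library 1 it was 0.0507 for Snrpg and 0.0634 for Snrpn.

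The counts of these 3 genes are uncertain, since 18.1% of the 50-base stretches of Snrpg, 20.8% of those of Snrpe and 21.2% of those of Snrpn also occur in transcripts of other genes. For Snrpe the gene that shared most was Snrpert, and for Snrpn it was Gm38393. Snrpn also overlaps Gm38393 and Snurf on the same strand over 27.3% of its exon bases, where reads cannot be given to 1 gene. Reads that met more than 1 gene amounted in WT to 2.5 and 2.54% of those on genes, and to 3.49 and 3.66% in the DDI2-KO-labelled libraries. For Clk4 no such stretch was found, and for Hnrnph1 it was 0.177% of them.

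The other Sm genes did not pass. Snrpb, which encodes SmB, was at 18.1 and 20.7 CPM in WT and at 27.6 and 21.7 CPM in the DDI2-KO-labelled libraries (log2 fold change 0.35, edgeR adjusted p = 0.2998). Snrpd2 had a log2 fold change of 0.51 and Snrpd1 of -0.13. Snrpd3, the most abundant U snRNP gene tested per kilobase at 11.6 CPM, was at 45.4 and 44.8 CPM against 34.1 and 35.4 CPM (log2 fold change -0.38, edgeR adjusted p = 0.183). Snrpf had 31 and 33 reads in WT and 16 and 10 reads in the DDI2-KO-labelled libraries, and its log2 fold change of -0.90 had a standard error of 0.43 (edgeR adjusted p = 0.243). Its exons overlap genes of the other strand over 85.4% of their bases. The Sm genes thus lay on both sides of 0.

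The 3 proteins found only in U1, encoded by Snrnp70, Snrpa and Snrpc, had log2 fold changes below 0 that did not pass. Snrpc was at 10.6 and 10.5 CPM in WT and at 6.53 and 5.004 CPM in the DDI2-KO-labelled libraries (log2 fold change -0.87, edgeR adjusted p = 0.0702). Snrnp70, which binds the first stem loop of U1 RNA, was at 62.2 and 65.1 CPM against 44.8 and 42.3 CPM (log2 fold change -0.55, edgeR adjusted p = 0.0851). Snrpa was at 13.3 and 12.9 CPM against 12.1 and 7.66 CPM (log2 fold change -0.41, edgeR adjusted p = 0.342). In each of them both DDI2-KO-labelled libraries lay below both WT libraries, as in 27.7% of all genes. Snrnp200, the helicase of U5 that unwinds U4 from U6, was at 82.7 and 87.4 CPM against 88.6 and 90.0 CPM (log2 fold change 0.070).

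The remaining genes of the pathway were taken from a list of 142 other splicing genes, of which 138 were tested. Of these, 9 were called (6.52%), all lower, beside 2.53% of all genes called and 1.2% called lower, and the list's median log2 fold change was -0.11. The list was not tested as a set, and the list and its groups were chosen with earlier results of these data known. In 59 genes (42.8%) both DDI2-KO-labelled libraries lay below both WT libraries, beside 27.7% of all genes. The called genes were mostly SR-related and U1-associated proteins, with 6 of 24 called (25%) and a median log2 fold change of -0.58. In this group 23 genes (95.8%) were below 0, beside 51.3% of all genes tested. Pnisr, an SR-related protein, was at 53.3 and 42.5 CPM in WT and at 10.6 and 16.01 CPM in the DDI2-KO-labelled libraries. The log2 fold change came to -1.85 (SE 0.23, edgeR adjusted p = 0.0186). Luc7l2 and Luc7l3, relatives of a yeast U1 protein, had log2 fold changes of -1.41 and -1.43 (edgeR adjusted p = 0.0202 and 0.0153). Luc7l2 was at 101 and 95.4 CPM in WT and at 31.3 and 43.0 CPM in the DDI2-KO-labelled libraries. Luc7l3 was at 34.1 and 32.8 CPM against 12.6 and 12.3 CPM. Pnn, which encodes pinin of nuclear speckles, was at 28.1 and 27.0 CPM against 9.43 and 10.9 CPM (log2 fold change -1.44, edgeR adjusted p = 0.0166). Rbm25 (-1.03) and Scaf4 (-0.90) were the other called genes of the group (edgeR adjusted p = 0.0404 and 0.0438). Outside it, Prpf38b (-0.995), Rbm5 (-0.87) and Ewsr1 (-0.74) were called, with edgeR adjusted p = 0.0438, 0.0438 and 0.0490. Pnisr, Luc7l2, Luc7l3 and Pnn were called in each of the 16 alternatives. Rbm25 was called in 11 of them, Scaf4, Prpf38b and Rbm5 in 10 each, and Ewsr1 in 9. Among the 10 Lsm genes tested, which encode a ring related to the Sm ring, edgeR, DESeq2 and both forms of limma called 0. Their median was 0.22, and 3 (30%) had an unadjusted edgeR p under 0.05, beside 23.5% of all genes tested. None was called by these tools among the SRPK and DYRK kinases, the U2AF group, the DEAH helicases or the NTC and exon junction genes. In these groups 0 of 5, 1 of 14, 2 of 7 and 3 of 22 genes tested had an unadjusted edgeR p under 0.05, beside the same 23.5%.

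**Figure D3:**
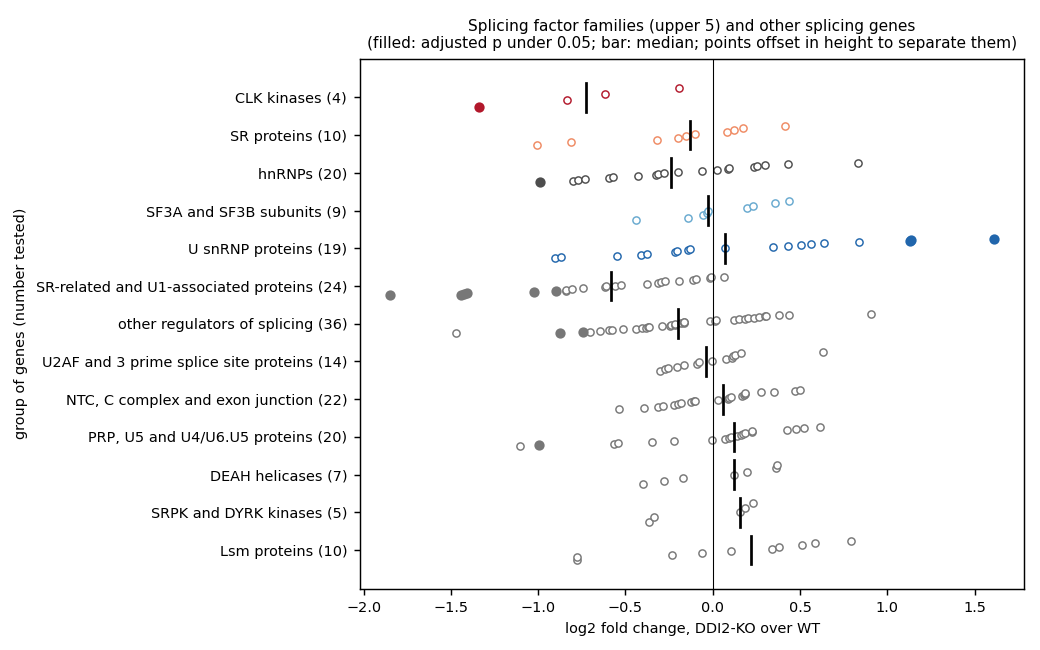
Log2 fold change, DDI2-KO over WT (x axis), of each tested gene in 5 families of splicing factors and 8 groups of other splicing genes (y axis, with the number tested). Filled points have an adjusted p under 0.05 and bars are medians; the CLK kinases (median -0.73) and the SR-related and U1-associated proteins (median -0.58) lie furthest to the left.

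Transcripts with a retained intron are annotated for 46 of the 62 genes (74.2%), beside 58.9% of the protein-coding genes tested. The median log2 fold change was -0.14 for these 46 genes and 0.18 for the 16 without one. The second value rested on the libraries and the processing, as it was 0.034 without WT library 1, 0.049 without DDI2-KO library 1, 0.33 without WT library 2, 0.33 without DDI2-KO library 2, 0.045 with offsets and 0.012 with block and offsets. The median of the 46 genes lay between -0.19 and -0.093 over the 16 alternatives. Over all protein-coding genes tested, the medians were -0.0048 and 0.022, and over the other splicing genes -0.17 and 0.11. The part of retained introns in the calls was not tested. Of the 9 called other splicing genes, all lower, 7 have a retained-intron transcript, beside 77.5% of the tested genes of that list. Of the 5 called splicing factor genes, 2 have one (1 lower and 1 higher) and 3 do not (1 lower and 2 higher). Clk4 has 7 such transcripts among 14, with 59.8% of its exon bases found only in them, and Snrpg has 1 among 4. Hnrnph1, Snrpe and Snrpn have none. Across the 62 genes, which share the same 4 libraries, Spearman's correlation of the log2 fold change was -0.205 with the share of exon bases found only in retained-intron transcripts, -0.385 with transcript length and 0.22 with GC content. Over the 12719 protein-coding genes tested these were -0.0253, -0.180 and 0.0257. The counts are per gene, so reads from spliced and unspliced transcripts were not told apart. Of the 26 genes lower in both DDI2-KO-labelled libraries, 14 (53.8%) were lowest in library 1, the library with fewer reads on no gene, beside 51% of all such genes tested. The replicates of the DDI2-KO-labelled libraries were further apart in these genes than those of WT, with a median absolute log2 difference of 0.297 against 0.112, beside 0.272 against 0.193 over all genes tested.

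The number of splicing factor genes called changed with the method. DESeq2 called 12 of them (6.86% of all genes), limma-voom 3 (0.993%) and limma-trend 2 (1.01%), and edgeR called 3 (1.11%) when its robust estimation was off. Hnrnph1 missed the threshold in the last 3 of these fits (adjusted p = 0.0594 with limma-voom, 0.0611 with limma-trend and 0.0582 with edgeR). Snrpn missed it in the same fits (0.0591, 0.0585 and 0.0568), and Clk4 with limma-trend (0.0517). Without the filter on low counts 15 were called (7.32%), with the replicate number as a block 12 (8.09%), with offsets for GC content and length 10 (5.88%) and with both block and offsets 8 (3.07%). Leaving out WT library 1 gave 0 calls by edgeR (1.1% of all genes), with 15 at an unadjusted p under 0.05, WT library 2 gave 2 (1.46%), DDI2-KO library 1 gave 3 (2.4%) and DDI2-KO library 2 gave 9 (4.41%). Over the 16 alternatives, Clk4, Snrpg and Snrpe were called in 14 each, and Hnrnph1 and Snrpn in 10 each. The adjusted p of Clk4 ran from 4.73e-06 to 0.0877, that of Snrpg from 4.55e-05 to 0.102 and that of Hnrnph1 from 0.000169 to 0.176 over these alternatives. Clk1, Srsf5 and Srsf11 were called in 4, 5 and 6 of them. All of these genes kept their direction in each alternative.

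**Figure D4:**
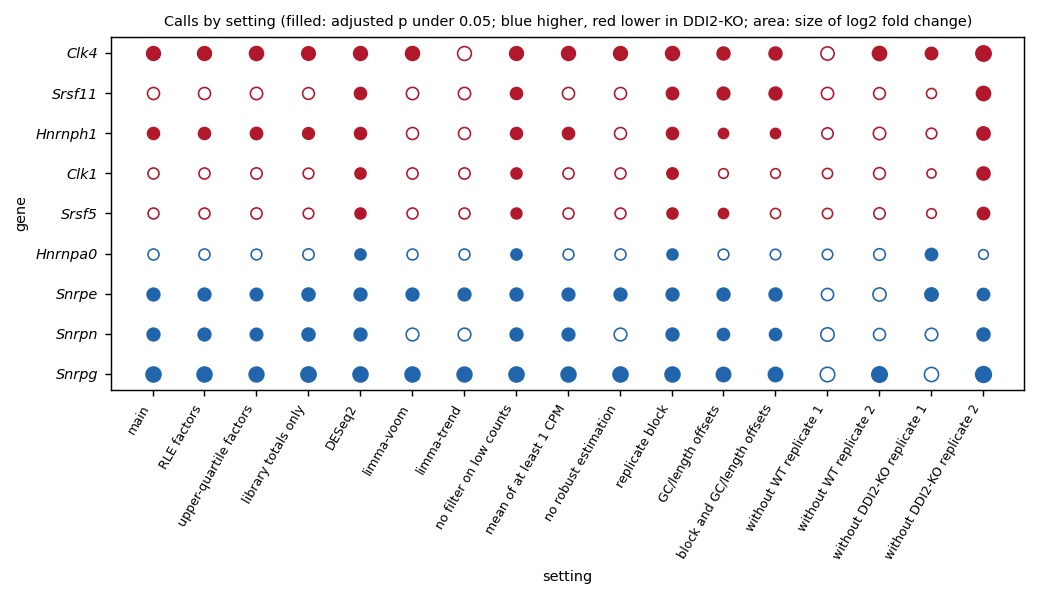
Calls of 9 splicing factor genes (y axis) in the reported fit, shown as main, and in 16 alternatives (x axis). Filled circles have an adjusted p under 0.05, red is lower and blue higher in DDI2-KO, and the area follows the size of the log2 fold change; Clk4, Snrpe and Snrpg are each filled in 14 of the 16 alternatives, and no circle of the column without WT replicate 1 is filled.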

How the data were processed

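Liver mRNA libraries (TruSeq Stranded) of 2 WT and 2 DDI2-KO mice were used. The deposited values are raw counts of reads per Ensembl gene, 1 file per mouse, neither normalized nor pooled. The submitters' processing notes name cutadapt 1.8, STAR 2.5.2b, HTSeq 0.6.1 and GRCm38. The annotation and the strand setting of the counting are not given in the sources used here. The summary lines after the genes were kept out of library sizes and tests. Symbols, coordinates and transcript types were taken from GENCODE M21 (GRCm38), which held 48349 of the 48709 gene identifiers.

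Counts were fitted with edgeR 4.0.16 in R 4.3.3 (TMM, filterByExpr, glmQLFit with robust estimation, glmQLFTest) on all genes, and p-values were adjusted by Benjamini-Hochberg over the 13699 genes tested. The threshold was an adjusted p of 0.05. Standard errors were obtained as the size of the log2 fold change over the root of F. The moderated limma test named in the study's methods served as an alternative (limma 3.58.1, voom, and trend with a prior count of 2). The other alternatives were DESeq2 1.42.0, RLE and upper-quartile factors, library totals, a replicate block, no filter, genes with a mean of 1 CPM or more, dispersion without robust estimation, offsets for GC content and length (lowess span 0.3), an adjusted p under 0.10 and leaving out each library.

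The genes, families and lists were chosen with earlier results of these data known. Named genes are those called, Clk1 to Clk4, the 2 highest and 2 lowest log2 fold changes and the highest and lowest level per kilobase of each family, genes not tested, called genes of the other splicing list, and Ddi2, Malat1 and Neat1. The other genes given with values were chosen after their values were seen. Stretches of 50 bases were searched in the transcripts of other genes. Replicates differed beyond sampling noise (chi-square over degrees of freedom of 64.7 in WT and 34.7 in DDI2-KO), and each library was kept as 1 sample. The labels state no pairing. With 2 mice per group, p-values rest on few samples.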

Additional observations from a re-analysis of the deposited data

Results flagged for a closer look

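Reads that met more than 1 gene lie outside the gene counts, and their share of the reads on genes was higher in both DDI2-KO-labelled libraries (3.49% in the lower and 3.66% in the higher) than in both WT libraries (2.5 and 2.54%). These reads were not assigned to genes by the counting, and the splicing factor genes they fell on were not analysed here.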

How the results depend on the processing

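All genes called numbered 346 in the reported fit, 940 with DESeq2, 136 with limma-voom, 139 with limma-trend, 1544 without the filter, 152 without robust estimation, 806 with offsets for GC content and length, 1281 at an adjusted p under 0.10 and 153 to 631 without 1 library. Splicing factor genes called numbered 5, and in these alternatives 12, 3, 2, 15, 3, 10, 15 and 0 to 9. Other splicing genes called numbered 9, and 15 with DESeq2, 4 with limma-voom, 4 with limma-trend, 20 without the filter, 4 without robust estimation, 17 at an adjusted p under 0.10 and 4 to 16 without 1 library. RLE factors, upper-quartile factors, library totals and a mean of at least 1 CPM called the same 5 splicing factor genes, 3 higher and 2 lower. With upper-quartile factors 39.7% of all calls were higher, beside 52.6% in the reported fit.

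The median log2 fold change of the splicing factor genes, -0.11, was -0.17 with upper-quartile factors, -0.065 with library totals, -0.080 with offsets, -0.081 with block and offsets, and -0.12 to -0.042 without 1 library. Directions turned, in genes that were not called, for Hnrnpr with offsets (0.30) and with block and offsets (0.29), and when 1 library was left out, where Sf3b2 ran from -0.23 to 0.11 and Srsf6 from -0.021 to 0.35 (each turned without DDI2-KO library 2), and Sf3b5 from -0.47 to 0.70 and Srsf10 from -0.64 to 0.15 (each turned without DDI2-KO library 1). The cause was not tested.

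With the replicate block, 1108 genes, 12 splicing factor genes and 15 other splicing genes were called, and 8 splicing factor genes with block and offsets. The 5 genes of the reported fit were among them in both fits. Deviations of same-numbered libraries from their group means correlated at 0.0588 over all genes tested, and the labels state no pairing, so the numbers were not taken as pairs. Where a library was left out, the lone library of its group was assumed to vary like the other group. Snrpf had 10 to 33 reads, the fewest of the splicing factor genes tested.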
